A study of Mus musculus with 9 samples.

Results

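The NR4A, EGR and IER early genes were examined in B.END3 cells, a mouse brain microvessel endothelial line immortalized with polyoma middle T antigen, after porfimer sodium photodynamic treatment. The set held 9 of the 54532 genes listed in the deposited expression table, taken by gene symbol. It was chosen with earlier results of these data known. These were the nuclear receptor genes Nr4a1, Nr4a2 and Nr4a3, the zinc-finger factor genes Egr1, Egr2 and Egr3, and the immediate early response genes Ier2, Ier3 and Ier5. RNA was sequenced in 9 libraries, 3 each from untreated cells (Ctrl), cells given a light dose of 10 J/cm2 (Ep1) and cells given 20 J/cm2 (Ep2). The strain was labelled C57BL/6 in every group. The treated monolayers had taken up porfimer sodium, a photosensitizer, at 300 µg/mL for 90 min before 635 nm laser light at 100 mW/cm2, so the calculated exposure was 100 s for Ep1 and 200 s for Ep2. No library of drug alone or light alone and no interval from light to lysis is described, so drug, light and elapsed time cannot be told apart.

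Immediate early genes are transcribed within minutes of a stimulus from factors already present in the cell, and their short-lived mRNAs decay again soon after. NR4A proteins are orphan nuclear receptors whose activity follows their amount rather than a classical ligand. EGR proteins bind GC-rich DNA and recruit the corepressors NAB1 and NAB2, while the IER proteins are small early response factors linked to growth, survival and stress. In endothelial cells, growth factors, thrombin and shear stress are known inducers of several of these genes.

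Values are FPKM, fragment counts scaled to gene length and library depth, which allow levels of different genes to be set side by side per length. Between 16240688 and 19509225 fragments fell on genes in each library. The share of mitochondrial fragments was 1.90% to 1.99% in Ctrl, 2.0% to 2.08% in Ep1 and 2.04% to 2.49% in Ep2. The growth notes call the cells rat, whereas the organism is given as mouse and the genes are mouse genes. The endothelial label went against its defining markers. Only Flt1 and Eng of 12 endothelial markers had a mean of at least 1 FPKM in each group, Emcn and Erg were at 0 in all 9 libraries, and Pecam1 did not exceed 0.242 FPKM. The summed endothelial list ran from 9.45 to 9.67 FPKM in Ctrl, 9.43 to 10.8 in Ep1 and 13.0 to 14.1 in Ep2. The epithelial keratins Krt8, Krt18 and Krt19 were abundant. The sum of 9 epithelial markers was 1029 to 1081 FPKM in Ctrl, 937 to 1041 in Ep1 and 1155 to 1373 in Ep2. Only these 3 keratins reached a mean of 1 FPKM in Ctrl and Ep1, joined in Ep2 by Epcam at 1.77. Krt7 was at 0 in all 9 libraries, and Cdh1, Cldn3, Cldn4 and Cldn7 did not exceed 0.177 FPKM. Of 7 fibroblast and pericyte markers and 4 leukocyte markers, 1 each reached a mean of 1 FPKM in each group, with sums of 6.60 to 8.92 and 9.83 to 11.7 FPKM over the 9 libraries. The part of these markers in the results was not tested.

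Differences were fitted with limma on log2(FPKM + 1), a scale that understates the change of low genes, for the 11727 genes with at least 1 FPKM in at least 3 libraries. A gene was called at an adjusted p (Benjamini-Hochberg over all genes tested) below 0.05. Of the 9 early genes, 8 were tested. Nr4a3 was under the filter, and Egr2 reached 1 FPKM in 4 libraries only, all of them treated. Both comparisons with Ctrl share its 3 libraries. The sources do not say whether libraries of a group came from separate cultures, so the p-values measure only the spread between these libraries, which may be technical.

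In untreated cells the IER genes stood far above the others. Mean levels in Ctrl were 193 FPKM for Ier3, 65.2 for Ier2 and 37.7 for Ier5, and the ranges of these genes did not overlap. Nr4a1, Egr1 and Egr3 followed at 4.53, 4.37 and 3.77 FPKM with overlapping ranges, then Nr4a2 at 1.56, Egr2 at 0.608 and Nr4a3 at 0.0231. After treatment the IER genes kept the 3 highest ranks in the same order. In Ep1, Nr4a1, Egr1, Nr4a2 and Egr3 each overlapped the next in that order, and Egr2 overlapped Nr4a3. In Ep2 the order of overlapping neighbours was Nr4a1, Nr4a2, Egr1 and Egr3, and Egr2 stood apart from Nr4a3.

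**Figure D1:**
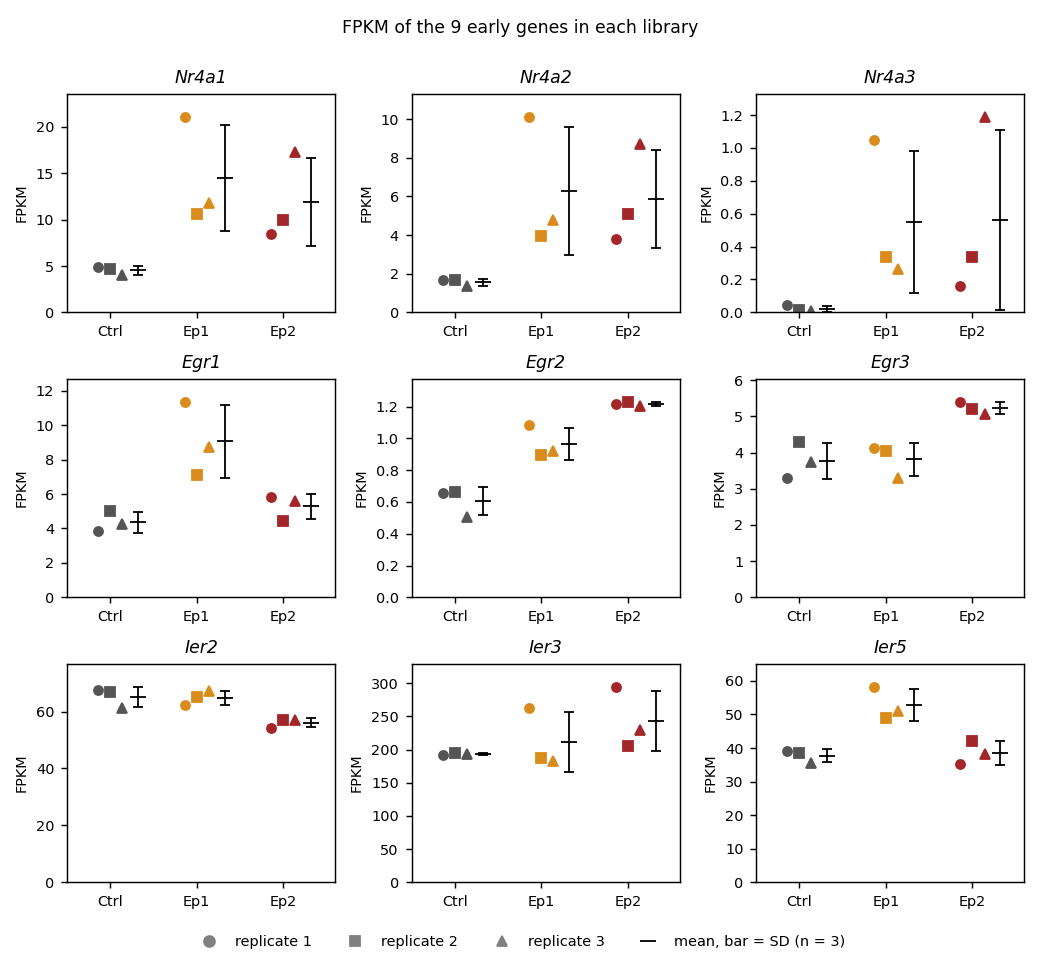
FPKM (vertical axes, from 0, a separate scale for each gene) of the 9 early genes in the 3 Ctrl, 3 Ep1 and 3 Ep2 libraries, with a symbol for each replicate number and the mean with its SD beside them. All 6 treated libraries lie above all 3 Ctrl libraries for Nr4a1, Nr4a2, Nr4a3 and Egr2, whereas only Ep1 stands apart for Egr1 and Ier5 and only Ep2 for Egr3 and Ier2. For Ier3 the Ep2 libraries lie above Ctrl but overlap Ep1.

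Nr4a1 and Nr4a2 rose at both light doses, and Nr4a3 was higher in all 6 treated libraries than in any Ctrl library. Nr4a1 (ENSMUSG00000023034) is listed on the plus strand of chromosome 15 from 101254269 to 101274795, Nr4a2 (ENSMUSG00000026826) on the minus strand of chromosome 2 from 57106830 to 57124003, and Nr4a3 (ENSMUSG00000028341) on the plus strand of chromosome 4 from 48045153 to 48086447, all on GRCm38. They encode receptors with closely related DNA-binding domains, known as NUR77, NURR1 and NOR1. Their RefSeq promoter windows, the 250 bases before the transcription start on GRCm38.p6, share 4 matches each to the cAMP response element (CRE) core TGACG, read on either strand. At least 1 such match was present in 17.7% of 32817 windows of the same length, and at least 4 in 0.137%. The number 4 is the one these windows hold, and other motifs were searched too, so the share is a description and no test. The windows of the NR4A genes were also GC-rich, at 74.4% for Nr4a1, 80% for Nr4a2 and 63.6% for Nr4a3, and base composition was not matched in that share. The 3 overlapping windows of the last Egr2 starts each held 2 cores. The Nr4a1 window lies inside the listed span of the gene, since its RefSeq start is downstream of the listed start. All 4 Nr4a2 stretches and the Nr4a1 stretch nearest to the start lie within a GENCODE vM39 transcript. The Nr4a3 window runs from 48045055 to 48045304 and so extends past the listed start of its gene at 48045153. Its core nearest to the RefSeq start lies within that listed span, though no Nr4a3 stretch was found in a GENCODE vM39 transcript. None of the 3 windows can thus be taken as wholly upstream of transcription. Stretches of up to 30 bases around the matches are printed 5′ to 3′ on the strand of the gene, because the core is what the windows of all 3 NR4A genes have in common. Capitals mark the match, TGACG or its reverse complement CGTCA.
Nr4a1, chr15:101266605-101266625, plus strand: gctccctgCGTCAatggaacc
Nr4a1, chr15:101266625-101266645, plus strand: cccgcgtgCGTCAcgcgcgca
Nr4a1, chr15:101266769-101266789, plus strand: gccgtgtgCGTCAgtggcgcc
Nr4a1, chr15:101266798-101266818, plus strand: tctccatgCGTCAcggagcgc
Nr4a2, chr2:57124191-57124211, minus strand: caggccggCGTCActggcagg
Nr4a2, chr2:57124135-57124155, minus strand: gctgcacgCGTCAcggagccc
Nr4a2, chr2:57124114-57124134, minus strand: ggccgggcTGACGgggccgct
Nr4a2, chr2:57124102-57124122, minus strand: ggggccgcTGACGcgcttggc
Nr4a3, chr4:48045066-48045086, plus strand: gaggagggTGACGtagcgtcc
Nr4a3, chr4:48045084-48045112, plus strand: tcccatgtCGTCAcatTGACGtctcgcat
Nr4a3, chr4:48045150-48045170, plus strand: ggcataaaTGACGtgccgaga

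The cores lay 40 to 233 bases before the start in Nr4a1, 111 to 200 in Nr4a2 and 147 to 231 in Nr4a3, counted to the base of the match farther from the start. Nr4a1 and Nr4a2 each also held 1 match to the EGR motif GCGNGGGCG, at -60 to -52 and -74 to -66, which 4.7% of all windows hold. No window of the 6 early genes found in the promoter table (Nr4a1, Nr4a2, Nr4a3, Egr2, Ier3 and Ier5) matched the full element TGACGTCA, which itself contains 2 overlapping cores, nor the AP-1 motif TGANTCA or the NR4A motif AAAGGTCA. These motifs occur in 1.55%, 6.75% and 1.34% of all windows. Egr1, Egr3 and Ier2 were not in the table. A match describes letters in the sequence and not binding.

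**Figure D2:**
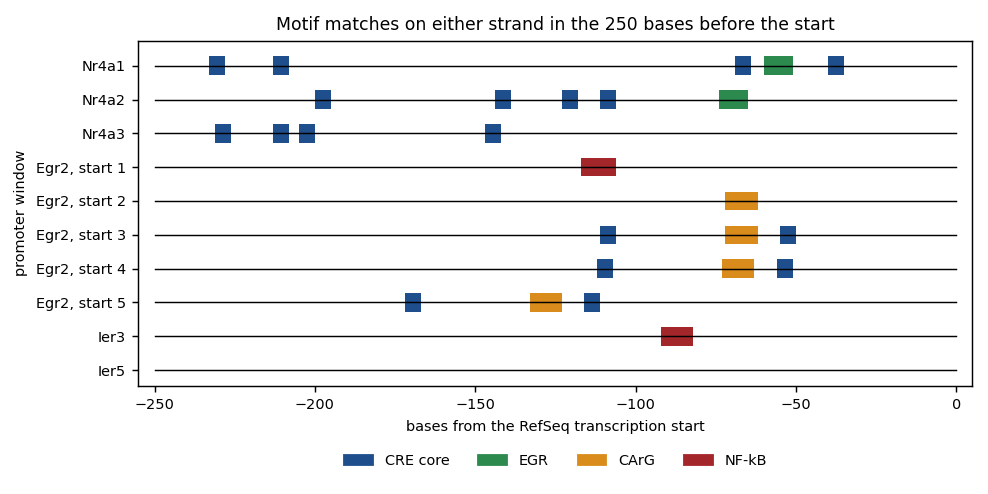
Position of motif matches (horizontal axis, bases from the RefSeq transcription start, on either strand) in the promoter windows of the 6 early genes in the table, with the 5 listed starts of Egr2 numbered in genome order. Each NR4A window carries 4 CRE cores (blue), the CArG box (orange) is found in Egr2 alone, and Ier5 has no match.

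Nr4a1 measured 4.91, 4.65 and 4.02 FPKM in Ctrl replicates 1 to 3, against 21.1, 10.6 and 11.8 in Ep1 and 8.46, 9.92 and 17.3 in Ep2. Every treated library exceeded every Ctrl library, and the Ep1 and Ep2 ranges overlapped. The means were 4.53 ± 0.455, 14.5 ± 5.72 and 11.9 ± 4.76 FPKM (SD, n = 3 each), 3.20-fold and 2.63-fold the Ctrl mean. The fitted log2 difference from Ctrl was 1.43 (SE 0.30, 95% CI 0.73 to 2.12, limma adjusted p 0.0269) in Ep1 and 1.17 (95% CI 0.47 to 1.86, limma adjusted p 0.0121) in Ep2. In a bulk sample, more cells with a transcript and more transcript per cell cannot be told apart.

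Nr4a2 followed Nr4a1 closely. It measured 1.66, 1.66 and 1.35 FPKM in Ctrl, 10.1, 3.97 and 4.78 in Ep1 and 3.77, 5.10 and 8.69 in Ep2, again with no overlap between treated and Ctrl libraries. From means of 1.56 ± 0.178, 6.28 ± 3.33 and 5.85 ± 2.55 FPKM (SD, n = 3 each), the Ep1 mean was 4.03-fold and the Ep2 mean 3.76-fold that of Ctrl. The log2 difference was 1.42 (95% CI 0.63 to 2.20, limma adjusted p 0.0378) in Ep1 and 1.36 (95% CI 0.57 to 2.15, limma adjusted p 0.0106) in Ep2.

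Nr4a3 was almost absent without treatment. It was covered by 5, 2 and 1 fragments in the Ctrl libraries, 116, 34 and 29 in Ep1 and 18, 38 and 118 in Ep2, or 0.0090 to 0.0433, 0.261 to 1.05 and 0.158 to 1.19 FPKM. The lowest treated library thus held 18 fragments against 5 in the highest Ctrl library. The share of all fragments was 23.6 times that of Ctrl in Ep1 (95% interval 11.7 to 55.5) and 23.3 times in Ep2 (11.6 to 54.8), intervals that cover counting error only. These ratios rested on single libraries. The ratio of mean FPKM, 23.8 in Ep1 and 24.3 in Ep2, was 13.0 without Ep1 replicate 1, 10.7 without Ep2 replicate 3, and 42.2 and 43.1 without Ctrl replicate 1. An exact two-sided permutation test gave p = 0.1 in both comparisons, the smallest p that 3 against 3 libraries can give. With no filter on low values the limma adjusted p was 0.344 in Ep1 and 0.185 in Ep2, so the difference was not called despite the lack of overlap.

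No difference between the doses was detected for the NR4A genes. The log2 difference of Ep2 from Ep1 was -0.26 for Nr4a1 (95% CI -0.96 to 0.43, limma adjusted p 0.512) and -0.06 for Nr4a2 (95% CI -0.84 to 0.73, limma adjusted p 0.906). Both intervals are wide and do not show that the doses act alike. The ratio of Nr4a3 fragment shares was 0.986 (counting interval 0.796 to 1.22), and the ratio of mean FPKM, 1.02, was 1.87 without Ep1 replicate 1 and 0.452 without Ep2 replicate 3.

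Spread between treated libraries was much larger than counting error for this family. The coefficient of variation of Nr4a1 was 10.1% in Ctrl, 39.5% in Ep1 and 40.0% in Ep2, where counting alone would give 5.73%, 3.30% and 3.67%. Nr4a2 varied by 53.1% in Ep1 and 43.5% in Ep2 against 4.65% and 4.87% from counting. A wide spread was not particular to this family. Among 38 other immediate early genes the Ep1 value ran from 1.70% for Fosl1 to 85.2% for Fosb. In both treated groups a single library carried the highest value of all 3 NR4A genes, replicate 1 in Ep1 and replicate 3 in Ep2. Ep1 replicate 1 was the highest library of its group for 8 of the 9 early genes and the lowest for Ier2. Ep2 replicate 3 had the highest mitochondrial share of the 9 libraries, 2.49%, and Ep1 replicate 1 the lowest of its group, 2.0%. The part of RNA quality in these values was not tested.

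The Ep1 calls of Nr4a1 and Nr4a2 depended on single libraries, while their Ep2 calls did not. Nr4a1 in Ep1 was no longer called without Ctrl replicate 1, 2 or 3 (adjusted p 0.0728, 0.0918 and 0.0542, with log2 differences of 1.36 to 1.48) or without Ep1 replicate 1 or 3 (0.0668 and 0.0715, with 1.14 and 1.54). Nr4a2 was lost without the same libraries (0.0743 to 0.114) and without Ep2 replicate 2 (0.0572). Over all 16 alternatives the limma adjusted p ran from 0.0179 to 0.0918 for Nr4a1 and from 0.0286 to 0.114 for Nr4a2 in Ep1. In Ep2 it stayed between 0.00533 and 0.0468 for Nr4a1 and between 0.00266 and 0.0487 for Nr4a2. Before adjustment the limma p was smaller in Ep1 than in Ep2, at 0.00154 against 0.00489 for Nr4a1 and 0.00329 against 0.00416 for Nr4a2. Without Ctrl replicate 1, the unadjusted limma p of Nr4a1 was 0.00424 in Ep1 and 0.0110 in Ep2, though only Ep2 was called. The adjusted p depends on all genes tested, and many more of them were called in Ep2. The kept calls thus do not show a firmer rise in Ep2.

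**Figure D3:**
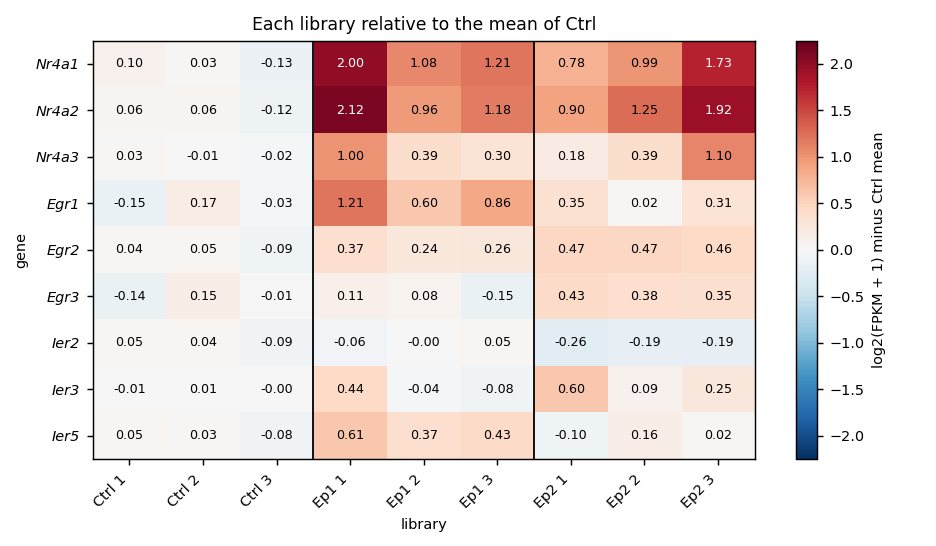
Each library's log2(FPKM + 1) minus the Ctrl mean (colour and printed value) for the 9 early genes (rows) in the 9 libraries (columns). Ep1 replicate 1 and Ep2 replicate 3 stand out in the NR4A rows, at 2.0 and 1.73 for Nr4a1 and 2.12 and 1.92 for Nr4a2, while Ier2 is negative in all 3 Ep2 libraries.

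The other genes whose pattern over the 6 treated libraries was nearest to Nr4a1 were ranked by Euclidean distance of log2(FPKM + 1) minus the Ctrl mean, over 11719 genes. Nr4a2 lay at a distance of 0.391, against 3.35 for the distance of Nr4a1 from its own Ctrl mean. Outside the 9 early genes the nearest were Ppp1r10, a phosphatase regulatory subunit gene (0.735), the secreted protease gene Adamts1 (0.844), Mir1945, a short microRNA locus with few fragments (0.868), the cytokine gene Il11 (0.879) and Ptgs2, which encodes cyclooxygenase 2 (0.991). These distances describe 6 libraries and carry no test.

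Egr1 and Egr3 split by dose. Egr1 was called higher in Ep1 alone and Egr3 in Ep2 alone. Egr2 was called in Ep2, and its difference between the doses did not pass. Egr2 (ENSMUSG00000037868), a regulator of hindbrain and myelin development, is listed on the plus strand of chromosome 10 from 67535475 to 67542188 and has 5 starts in the RefSeq promoter table. Of these, 4 have a CArG box, the site bound by serum response factor, within 250 bases, compared with 1.47% of all windows. The windows of the last starts overlap and hold the same box, so the 4 are not independent. All 4 lie inside the listed span of the gene. The 2 distinct boxes are printed since no other early gene in the table has one, with capitals marking the box.
Egr2, chr10:67537486-67537511, plus strand, GRCm38.p6: gatcttctCCTTTTTTGGaaagtctc
Egr2, chr10:67537789-67537814, plus strand, GRCm38.p6: tcctcagtCCATATATGGgcagcgac

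Egr2 was low throughout, with 32 to 79 fragments in a library. It measured 0.656, 0.662 and 0.507 FPKM in Ctrl, 1.08, 0.895 and 0.919 in Ep1 and 1.22, 1.23 and 1.21 in Ep2, and the 3 groups did not overlap. The means were 0.608 ± 0.0878, 0.966 ± 0.103 and 1.22 ± 0.0111 FPKM (SD, n = 3 each). The Ep2 libraries lay closer together, with a coefficient of variation of 0.912%, than the 11.5% that counting error gives, so their SD understates the uncertainty. Egr2 rose in Ep2, where the log2 difference from Ctrl was 0.46 (95% CI 0.26 to 0.67, limma adjusted p 0.00202), and with no filter on low values the limma adjusted p was 0.00212. In Ep1 it was 0.29 (95% CI 0.09 to 0.49, limma adjusted p 0.0677), and between the doses 0.17 (95% CI -0.03 to 0.38, limma adjusted p 0.146). On recovered fragments with voom, which keeps the scale of low genes, Egr2 passed in Ep1 (log2 difference 0.67, adjusted p 0.0406). Over its 15 alternatives the Ep1 adjusted p ran from 0.0406 to 0.180.

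Egr1 (ENSMUSG00000038418), a growth factor and shear responsive factor of the vessel wall, is listed on the plus strand of chromosome 18 from 34859823 to 34864984. It measured 3.83, 5.03 and 4.25 FPKM in Ctrl, 11.3, 7.13 and 8.72 in Ep1 and 5.80, 4.43 and 5.61 in Ep2. Ep1 stood above both other groups without overlap, and Ep2 overlapped Ctrl. The means were 4.37 ± 0.608, 9.06 ± 2.13 and 5.28 ± 0.742 FPKM (SD, n = 3 each), so Ep1 was 2.07-fold Ctrl. The log2 difference from Ctrl was 0.89 in Ep1 (95% CI 0.54 to 1.25, limma adjusted p 0.0130) and 0.23 in Ep2 (95% CI -0.13 to 0.58, limma adjusted p 0.253). The direct comparison of the doses put Ep2 lower by -0.67 (95% CI -1.02 to -0.31, limma adjusted p 0.00822). The Ep1 call was lost without Ctrl replicate 1 (adjusted p 0.0516, log2 difference 0.82) or Ep1 replicate 3 (0.0533, 0.91), in a range of 0.00799 to 0.0533 over 16 alternatives.

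Egr3 (ENSMUSG00000033730), a factor that acts downstream of growth factor and antigen receptors, is listed on the plus strand of chromosome 14 from 70077203 to 70082614. Its values were 3.31, 4.28 and 3.73 FPKM in Ctrl, 4.12, 4.03 and 3.29 in Ep1 and 5.39, 5.20 and 5.07 in Ep2. Ep1 overlapped Ctrl, and Ep2 lay above both. The means were 3.77 ± 0.488, 3.81 ± 0.456 and 5.22 ± 0.162 FPKM (SD, n = 3 each), a 1.38-fold level in Ep2. The log2 difference was 0.01 in Ep1 (95% CI -0.19 to 0.21, limma adjusted p 0.939) and 0.39 in Ep2 (95% CI 0.19 to 0.59, limma adjusted p 0.00519), and Ep2 exceeded Ep1 by 0.37 (95% CI 0.17 to 0.58, limma adjusted p 0.00798). Egr1 and Egr3 therefore moved in opposite directions between the doses, each with a test of its own.

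The genes nearest to Egr1 over the treated libraries were Plk2, a stress-responsive Polo-like kinase gene, at a distance of 0.481, the metallothionein gene Mt2 (0.547), the apolipoprotein gene Apoe (0.554), and the pseudogene loci Rpl21-ps10 (0.571) and Gm7143 (0.574). Egr1 itself lay 1.67 from its Ctrl mean. Reads of the pseudogenes may be shared with their parent genes.

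The IER genes, abundant before treatment, changed in different ways. Ier5 rose in Ep1, Ier2 fell in Ep2, and Ier3 did not pass in any comparison. Ier2 (ENSMUSG00000053560) is listed on the minus strand of chromosome 8 from 84661331 to 84662852, Ier3 (ENSMUSG00000003541) on the plus strand of chromosome 17 from 35821684 to 35822923, and Ier5 (ENSMUSG00000056708) on the minus strand of chromosome 1 from 155096361 to 155099636. The promoter window of Ier3 held an NF-kB motif, found in 7.25% of all windows, at -92 to -83 from the start. The window of the first Egr2 start also held NF-kB matches, on both strands at -117 to -107. The Ier3 match is printed as the one motif of the search that an IER window held, with capitals marking the match.
Ier3, chr17:35821613-35821638, plus strand, GRCm38.p6: cgaagggcGGAGTTCCCCccggcccg

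Ier5, a relative of Ier2 tied to heat shock factor activity, measured 39.0, 38.6 and 35.5 FPKM in Ctrl, 58.2, 49.1 and 51.1 in Ep1 and 35.1, 42.1 and 38.2 in Ep2. All Ep1 libraries exceeded all others, and Ep2 overlapped Ctrl. The means were 37.7 ± 1.91, 52.8 ± 4.75 and 38.5 ± 3.49 FPKM (SD, n = 3 each), 1.40-fold and 1.02-fold Ctrl. The log2 difference from Ctrl was 0.47 in Ep1 (SE 0.079, 95% CI 0.30 to 0.65, limma adjusted p 0.0105) and 0.03 in Ep2 (95% CI -0.15 to 0.21, limma adjusted p 0.791). Ep2 was below Ep1 by -0.45 (95% CI -0.62 to -0.27, limma adjusted p 0.00169). Ier5 was the one early gene called in Ep1 under each of its 16 alternative fits, with a limma adjusted p of at most 0.0482. Its log2 difference of 0.47 in Ep1 did not meet the study's fold threshold of 0.6.

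Ier2, a nuclear early response factor, measured 67.5, 66.7 and 61.2 FPKM in Ctrl, 62.3, 65.0 and 67.2 in Ep1 and 54.3, 56.9 and 57.1 in Ep2. The Ep2 libraries were below all others, while Ep1 overlapped Ctrl. From means of 65.2 ± 3.41, 64.9 ± 2.44 and 56.1 ± 1.58 FPKM (SD, n = 3 each), the Ep2 level was 0.861 of Ctrl. The log2 difference was -0.21 (95% CI -0.32 to -0.10) from Ctrl and also -0.21 (95% CI -0.32 to -0.10) from Ep1, with limma adjusted p values of 0.00528 and 0.00793. In Ep1 the interval of the difference from Ctrl was -0.12 to 0.10. The 5 nearest genes lay within 0.082 of its pattern (Tor1a, Nono, Nvl, Ints2 and Fscn1), against 0.378 for the distance of Ier2 from its Ctrl mean.

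Ier3, a small stress-induced protein gene also known as IEX-1, was the most abundant of the 9. It measured 192, 195 and 193 FPKM in Ctrl, 263, 188 and 183 in Ep1 and 294, 206 and 230 in Ep2. The 3 Ep2 libraries were above Ctrl, and replicate 1 was the highest library of both treated groups. The means were 193 ± 1.47, 211 ± 44.9 and 243 ± 45.7 FPKM (SD, n = 3 each). The log2 difference was 0.11 in Ep1 (95% CI -0.27 to 0.48, limma adjusted p 0.706), 0.31 in Ep2 (95% CI -0.06 to 0.69, limma adjusted p 0.140) and 0.21 between the doses (95% CI -0.17 to 0.58, limma adjusted p 0.334). Without Ep1 replicate 1, Ier3 passed in Ep2 against Ctrl (0.31, adjusted p 0.0489) and in Ep2 against Ep1 (0.38, adjusted p 0.0479). Over 16 alternatives these adjusted p values ran from 0.0489 to 0.389 and from 0.0479 to 0.766.

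**Figure D4:**
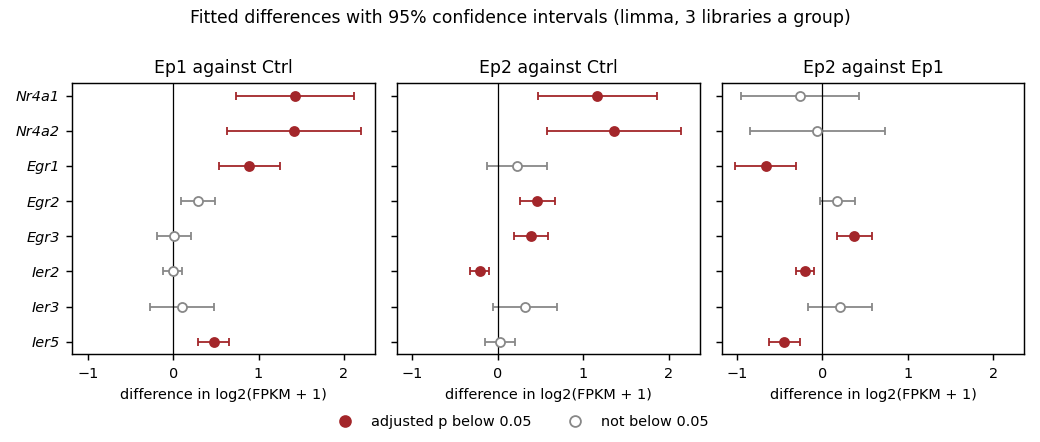
Difference in log2(FPKM + 1) with its 95% confidence interval (horizontal axis, limma, 3 libraries a group) for the 8 early genes tested, in Ep1 against Ctrl, Ep2 against Ctrl and Ep2 against Ep1. Filled points passed an adjusted p of 0.05, and the intervals of Nr4a1 and Nr4a2 are the widest in each panel.

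Counted together, 4 of the 8 early genes tested were called higher in Ep1 (Nr4a1, Nr4a2, Egr1 and Ier5) and none lower, where 6.32% of all 11727 genes were called higher and 4.97% lower. With the further demand of an absolute difference above 0.6, the study's fold threshold applied here to log2(FPKM + 1), 3 passed, compared with 0.793% of genes. This scale shrinks low genes, so the rule is stricter for them than on a plain fold scale. In all 9 early genes, Ep1 lay wholly above Ctrl for 6, which included Nr4a3 and Egr2, and overlapped for 3, while 41.3% of genes had no overlap in 1 direction or the other. As a description, the median log2 difference of the 8 was 0.38, and that of all genes tested -0.01. The number called in Ep1 fell to 1 without Ctrl replicate 1 or Ep1 replicate 3 and to 2 without Ctrl replicate 2, Ctrl replicate 3 or Ep1 replicate 1.

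In Ep2, 4 were called higher (Nr4a1, Nr4a2, Egr2 and Egr3) and 1 lower (Ier2), on a background of 23.9% of genes called higher and 29.3% lower. Nr4a1 and Nr4a2 passed the fold rule on the log2(FPKM + 1) scale, as did 9.17% of genes. Egr2, with a mean ratio of 2.0 to Ctrl, did not pass it there, but its log2 difference was 1.0 with voom on fragments (adjusted p 0.000368) and 0.90 with a pseudocount of 0.1 (adjusted p 0.00285), in a range of 0.000368 to 0.00800 over 15 alternatives. Libraries did not overlap for 6 early genes that were higher and 1 that was lower, against 59.7% of all genes. The median was 0.35, compared with -0.03 over all genes tested. Between the doses, Egr3 was called higher and Egr1, Ier2 and Ier5 lower in Ep2, where 18.8% of genes were called higher and 25.2% lower. Egr1 alone passed the fold rule, which 5.9% of genes passed, and 2 early genes were wholly higher and 3 wholly lower, on a background of 54.4% without overlap. The median difference between the doses was -0.13 for the 8 and -0.01 for all genes tested.

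Relatives and partners of the early genes moved in both directions. In Ep1, 1 of the 5 tested was called higher and none lower, on a background of 6.32% and 4.97%, with a median log2 difference of -0.14. The gene called was Nab1, which encodes an EGR corepressor (log2 difference 0.29, limma adjusted p 0.0148). It was not called without Ctrl replicate 1 or 2 or Ep1 replicate 1 or 3, which left 0, and 1 gene was called lower without Ctrl replicate 3, Ep2 replicate 1 or Ep2 replicate 3. Nab1 stayed higher in Ep2 (0.39, limma adjusted p 0.000309), where Nab2, the second corepressor, was also higher (0.23, limma adjusted p 0.00739). Rxrb, a retinoid X receptor that can pair with NR4A1 and NR4A2, was lower in Ep2 (-0.63, limma adjusted p 8.82e-05), as was Ier5l, a relative of Ier5 (-0.22, limma adjusted p 0.00963), and the median of the list was -0.16. The background there was 23.9% higher and 29.3% lower. Rxra gave -0.14 in Ep1 and -0.16 in Ep2 and passed in neither. Rxrg was listed at 0 in every library, and Egr4 held at most 2 fragments. Between the doses Nab2 was higher (0.25, limma adjusted p 0.00669) and Rxrb lower (-0.38, limma adjusted p 0.00225) in Ep2, with a median of -0.01. Without Ep2 replicate 1 the number higher was 2.

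The transcription factors that act on early-gene promoters, serum response factor and its cofactors and the CREB family, gave differences in both directions. In Ep1, 3 of 12 were called higher, the CREB relative Atf1 (0.33), the ternary complex factor Elk4 (0.27) and Srf (0.19), and the cofactor Mkl1 was lower (-0.24), on a background of 6.32% higher and 4.97% lower, with a median of 0.05 against -0.01 over all genes tested. These counts were not stable, since none was called higher without Ctrl replicate 2 or Ep1 replicate 3, and 1 without Ctrl replicate 1 or Ep1 replicate 1. The lower call of Mkl1 was absent without Ctrl replicate 1 or 2 or any 1 Ep1 replicate. In Ep2, 5 were higher, the CREB family member Crem (0.55), Elk4 (0.38), Crtc3 (0.26), Mkl2 (0.25) and Srf (0.17), and 2 were lower, Mkl1 (-0.35) and the CREB coactivator Crtc2 (-0.24), with a median of 0.10 against -0.03 over all genes tested. The background was 23.9% higher and 29.3% lower, and the counts of this list of 12 were not tested against it. The number higher was 3 without Ctrl replicate 3. Creb1, Crtc1, Elk1 and Elk3 passed in neither comparison, with log2 differences between -0.06 and 0.08. Between the doses Atf1 was lower in Ep2 (-0.21, limma adjusted p 0.0201), none was called higher and the median was 0.03, where 18.8% of all genes were called higher and 25.2% lower. That lower call was absent without Ep1 replicate 3 or Ep2 replicate 1, each of which instead gave 1 called higher. With the library medians set equal, 5 were called higher between the doses and none lower.

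Of 38 other immediate early genes, 37 were tested. In Ep1, 15 were called higher and 1 lower, where 6.32% and 4.97% of all genes were. Of the 37 differences 30 were positive, and the median was 0.29 against -0.01 over all genes tested. The smallest adjusted p among those higher was shared by the circadian clock gene Per1 (0.70) and Dusp2, a nuclear MAP kinase phosphatase gene (0.40), both with a limma adjusted p of 0.00538. The gene called lower was Gadd45b, a stress sensor gene (-0.30, limma adjusted p 0.0240). The number higher was 8 without Ctrl replicate 1, 6 without Ctrl replicate 2 and 9 without Ep1 replicate 3, and Gadd45b was not called without Ctrl replicate 1 or 2 or Ep1 replicate 1 or 3. Without Ep2 replicate 1, 2 were lower. In Ep2, 18 were higher and 1 lower, where 23.9% and 29.3% of all genes were. The differences were positive in 31, and the median was 0.37 against -0.03 over all genes tested. Dusp2 had the smallest adjusted p (0.59, limma adjusted p 1.78e-05). The gene called lower was Arc, known from synaptic plasticity (-0.34, limma adjusted p 0.0285), and it was not called without Ctrl replicate 2 or 3 or Ep2 replicate 1 or 2. Nr4a1, Nr4a2 and Egr1 thus stood among a larger number of early genes with higher levels in Ep1, and Ier2 and Egr3 differed from Ctrl only in Ep2.

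Between the doses, 8 of the 37 were called higher and 2 lower in Ep2, where 18.8% and 25.2% of all genes were, with a median of 0.03 against -0.01 over all genes tested. Klf10, a TGF-beta inducible early gene, had the smallest adjusted p among those higher (0.45, limma adjusted p 4.97e-05). Jun, an AP-1 subunit gene, was lower (-1.02, limma adjusted p 0.00992), the same direction as Egr1 and Ier5. The number higher was 4 without Ep1 replicate 2 or 3, and the number lower was 1 without Ep1 replicate 1, Ep1 replicate 3, Ep2 replicate 1 or Ep2 replicate 2.

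**Figure D5:**
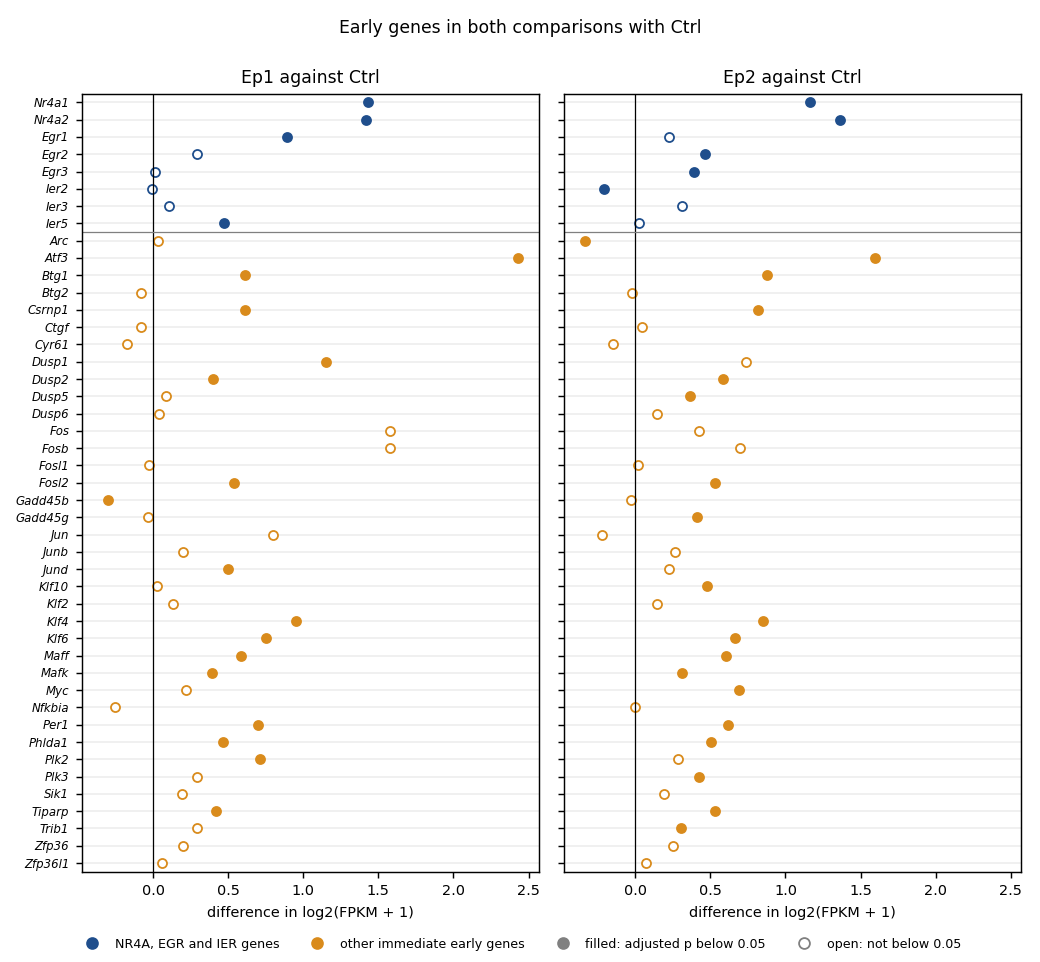
Difference in log2(FPKM + 1) from Ctrl (horizontal axes, the same scale in both panels) for the 8 early genes tested (blue, above the line) and 37 other immediate early genes (orange) in Ep1 and Ep2. Filled points passed an adjusted p of 0.05, which 4 of the 8 did as higher in each panel, and 15 and 18 of the 37.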

How the data were processed

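The authors sequenced B.END3 RNA as paired-end reads and deposited FPKM per gene. How reads were counted is not given in the sources used here. The study's methods name GRCm39, whereas the submitters' processing notes list Bowtie 0.12.2 and mm8, and the listed positions overlapped those of GRCm38.p6 for 99.9% of the 37624 genes compared, so coordinates are given as GRCm38. FPKM multiplied by listed length and scaled gave whole fragments for 100% of values (within 0.05), which served for depth and counting error.

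Libraries were grouped by their labels. limma 3.58.1 (R 4.3.3) was fitted to log2(FPKM + 1) with all 9 libraries in 1 model, with variance trend and robust moderation. It was also run on simulated counts with the same relative spread beyond counting for every gene. Those counts do not cover genes that vary as widely as the treated NR4A genes. Counting intervals are exact 95% intervals. Python 3.11.15 and scipy 1.17.1 gave descriptions and permutation tests. The alternatives were a pseudocount of 0.1, no filter, a filter at 5 FPKM, median centring, a replicate block, only the groups compared, voom on recovered fragments (at least 10 in 3 libraries), a fold change rule and leaving out each library. No alternative was added later. All 9 early genes are named, with every gene of the relative and promoter factor lists, the smallest adjusted p of the other early genes in each direction, and the 5 nearest patterns of Nr4a1, Egr1 and Ier2. The members and lists were chosen with earlier results of these data known.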

Additional observations from a re-analysis of the deposited data

Results flagged for a closer look

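In 4 of the 8 early genes tested the 2 light doses differed from each other in a direct test (limma on 9 libraries, Ep2 against Ep1). Since 18.8% of all genes tested were called higher and 25.2% lower in that comparison, the count itself is near the background. The log2 difference was -0.67 for Egr1 (adjusted p 0.00822), lower in 3 of 3 Ep2 libraries than in any Ep1 library. It was -0.45 for Ier5 (adjusted p 0.00169) and -0.21 for Ier2 (adjusted p 0.00793), also without overlap. Egr3 went the other way, at 0.37 (adjusted p 0.00798), with all 3 Ep2 libraries above Ep1. All 4 calls were kept in each of the 16 alternatives with adjusted p values of at most 0.0372, except that only Egr1 also met the fold change rule on the log2(FPKM + 1) scale. The doses also differ in exposure time, 100 s against 200 s, and the part of elapsed time cannot be told apart from that of dose.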

How the results depend on the processing

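The number of early genes called in Ep1 against Ctrl, 4, was 2 with no filter, 2 with the replicate number as a block, where Nr4a1 and Nr4a2 were not called (adjusted p 0.0511 and 0.0683), and 1 to 4 when leaving out 1 library in turn. The libraries' numbers did not pair them, with same-number correlations between -0.0565 and 0.0744, and not every library correlated best with its own number. Correlations between different numbers ran from -0.108 to 0.153. The highest was between Ep1 replicate 1 and Ep2 replicate 3, the libraries with the highest NR4A values of their groups, and its cause was not tested. The block changed no other call of an early gene. Under the fold change rule, set on the log2(FPKM + 1) scale, the number called was 2 in Ep2 against Ctrl and 1 in Ep2 against Ep1, compared with 5 and 4, and it was otherwise 4 to 6 and 4 to 5. The sign changed only in differences that were not called, on leaving out single libraries. In Ep1 against Ctrl these were Egr3 (-0.0586 to 0.0937), Ier2 (-0.0493 to 0.0218) and Ier3 (-0.0621 to 0.199). In Ep2 against Ctrl it was Ier5 (-0.0372 to 0.0900), and in Ep2 against Ep1 Nr4a1 (-0.546 to 0.0230) and Nr4a2 (-0.340 to 0.292). The cause was not tested. Nr4a1 and Nr4a2 in Ep1 were also not called with voom (adjusted p 0.0583 and 0.0959) or with no filter (0.0593 and 0.0825). For Nr4a3, voom gave log2 differences of 4.27 in Ep1 (adjusted p 0.150) and 4.02 in Ep2 (adjusted p 0.0872). Among the other immediate early genes, 9 rather than 15 were called higher in Ep1 with no filter. Depth limits Nr4a3, with 8 fragments in all of Ctrl, but its spread between treated libraries, 79.1% in Ep1 and 97.9% in Ep2, was far above the 12.9% and 13.1% that counting gives.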
